A study of Rattus norvegicus with 9 samples.

Results

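Aggrecan, versican and the genes that make, bind and cut hyaluronan were followed as 10 genes, out of 34267 genes in the deposited table. They were taken by symbol, and each symbol had 1 row. They comprise the lecticans Acan and Vcan, the link proteins Hapln1 and Hapln3, the hyaluronan synthases Has1, Has2 and Has3, the hyaluronan receptor Cd44, and the hyaluronidases Hyal1 and Hyal2. The cells were primary cultures of rat cartilage progenitor cells from condylar cartilage, all labelled wild type, with no transgene or deletion named. The control group, P3, was cultured to passage 3. The P9 group was cultured to passage 9, which the series uses as a model of replicative senescence. The FFSS group was passage 3 cells under flow fluid shear stress, used as a model of mechanically induced degeneration, and the series asks what the models share. Each group had 3 libraries of poly(A)-selected RNA. The strain, age and sex of the rats and the strength and duration of the flow are not given in the sources used here. The labels do not say whether replicates are different animals, different dishes or repeat preparations, so the p-values measure only the spread between these libraries, which may be technical.

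Aggrecan is the large chondroitin sulfate proteoglycan that gives cartilage its resistance to compression. Many aggrecan core proteins attach along a hyaluronan chain, and a link protein stabilises each attachment. Versican is the related proteoglycan of looser and embryonic matrices and binds hyaluronan in the same way. Hyaluronan itself is polymerised at the plasma membrane by the synthases, held at the cell surface by CD44 and cut by hyaluronidases.

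Depth ranged from 13264930 to 15323790 fragments per library, recovered from the steps of the deposited FPKM values (fragments scaled by gene length and by a factor for each library). FFSS replicate 1 stood apart from its group. Its correlation across tested genes was 0.936 to 0.945 with the P3 libraries, against 0.915 and 0.947 with FFSS replicates 2 and 3, which correlated with each other at 0.969. The label of cartilage was only partly matched: of 7 cartilage markers, Matn1 was listed at 0 in every library and 4 passed 1 FPKM in any library. Col2a1 passed it only in P3 replicate 1, with 1.06, 0.703 and 0.717 FPKM in P3. It had at most 0.191 FPKM in P9 and 0.378 FPKM in FFSS. Col9a1 and Matn3 reached at most 0.407 and 0.480 FPKM in any library. The sum of the 7 markers, mostly Col11a1, was 821 to 930 FPKM in P3, 201 to 315 FPKM in P9 and 422 to 544 FPKM in FFSS. The 7 mesenchymal progenitor markers all passed 1 FPKM, with sums of 1234 to 1356 FPKM in P3, 1162 to 1577 FPKM in P9 and 1859 to 2111 FPKM in FFSS. Markers of leukocytes and macrophages had a summed level of 9.38 to 10.9 FPKM in P3, and this sum was 5.14 to 5.66 FPKM in P9 and 42.2 to 101 FPKM in FFSS (6 of 7 listed markers measured). Smooth muscle markers had sums of 3545 to 4237 FPKM in P3, 8219 to 9699 FPKM in P9 and 3135 to 4597 FPKM in FFSS. Skeletal muscle markers had sums of 2.79 to 14.6 FPKM in P3, 35.7 to 43.3 FPKM in P9 and 1.09 to 3.06 FPKM in FFSS. The sums of synovial fibroblast markers were 25.6 to 64.1, 5.35 to 6.51 and 17.7 to 112.7 FPKM. Endothelial and epithelial sums stayed at or under 0.956 FPKM, with Cdh5, Emcn and Krt5 listed at 0. FFSS libraries had 2.96% to 3.75% of fragments from mitochondrial genes, against 2.12% to 2.32% for P3 and 2.31% to 2.56% for P9. The marker sums of cartilage and of leukocytes did not overlap between any groups. Those of smooth muscle, skeletal muscle and synovial fibroblasts set P9 apart, while FFSS overlapped P3. The skeletal muscle sum was mostly Acta1 in P3 and P9. In the test described below, Acta1 and Cnn1 were lower in FFSS than in P3 (-2.16 and -1.79, limma adjusted p = 0.0136 and 0.0463). Acta2, Tagln and Myh11 did not pass in that comparison. The mesenchymal progenitor sum and the mitochondrial share set FFSS apart, while P9 overlapped P3. The progenitor sum was mostly Thy1, and its 7 genes did not all move the same way. In the same test Mcam was called higher and Eng lower at passage 9. Under shear stress Thy1, Eng, Pdgfra and Pdgfrb were called higher and Mcam lower. The part of all these in the results on the network was not tested.

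Aggrecan passed the test in every comparison, and it moved in opposite directions in the 2 models: higher at passage 9 and lower under shear stress. The link protein genes and Hyal2 were instead higher under shear stress, and Has2 was lower at passage 9. The calls of Hapln3 under shear stress and of Has2 at passage 9 were weak, lost in 10 and 9 of 16 alternative fits. Of the 10 members, 8 reached 1 FPKM in at least 3 libraries and were tested. Has1 and Has3 did not. The test was limma on log2(FPKM + 1) over 13059 genes, two-sided, and a gene was called at a Benjamini-Hochberg adjusted p under 0.05. On this scale fold changes of low genes are understated. For P9 against P3, 2 of the 8 tested members were called (1 higher, 1 lower), where 9.83% of all tested genes were called (5.39% higher, 4.44% lower). For FFSS against P3, 4 of 8 were called (3 higher, 1 lower), where 21.8% of all genes were (11.4% higher, 10.4% lower). The 3 higher calls include Hapln1, which reached the filter only through the FFSS libraries, so this count is a description. Without FFSS replicate 1, the counts for FFSS against P3 were 4 higher and 2 lower of 8, where 39.0% of all genes were called. For P9 against FFSS, 6 of 8 were called (1 higher, 5 lower), where 31.4% of all genes were (16.1% higher, 15.3% lower). The 5 lower calls again include Hapln1, so this count is also a description. The libraries of P9 and P3 did not overlap for 6 of the 8 tested members, as for 40.1% of all tested genes, and those of FFSS and P3 for 4 of 8, as for 42.4%. The median difference of the tested members was -0.25 for P9 minus P3, 0.39 for FFSS minus P3 and -0.72 for P9 minus FFSS, beside -0.003, -0.011 and 0.003 over all tested genes. These medians and the counts of groups that did not overlap also include Hapln1 and are descriptions. The first 2 comparisons share the P3 libraries, so their values are set side by side and not treated as independent.

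**Figure D1:**
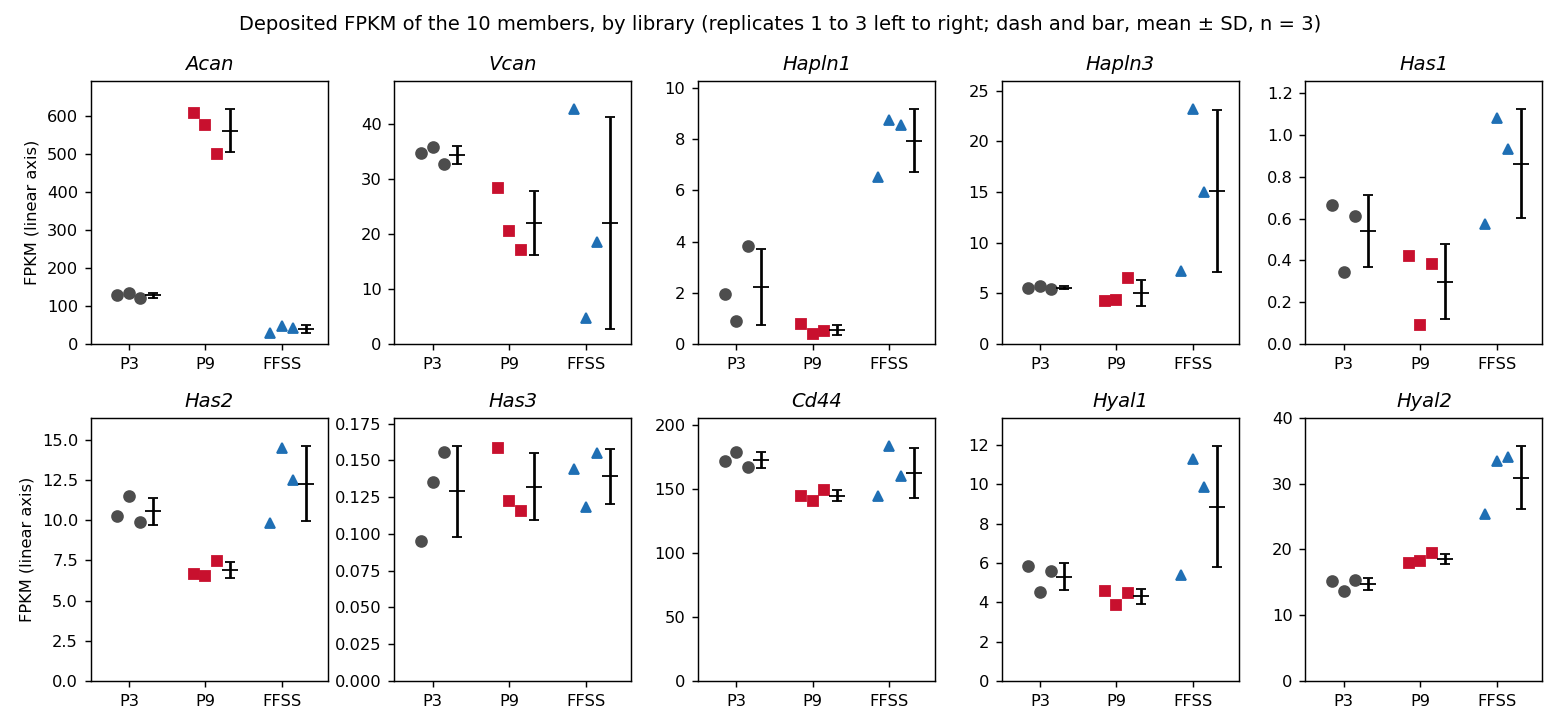
Deposited FPKM (linear axis from 0, a scale of its own in each panel) of the 10 members in the 9 libraries; grey circles are P3, red squares P9 and blue triangles FFSS, and the dash and bar give the mean ± SD (n = 3). Acan lies at 499 to 609 FPKM in the P9 libraries and at 29.3 to 48.2 FPKM in the FFSS libraries, while the FFSS libraries spread widely for Vcan and Hapln3.

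**Figure D2:**
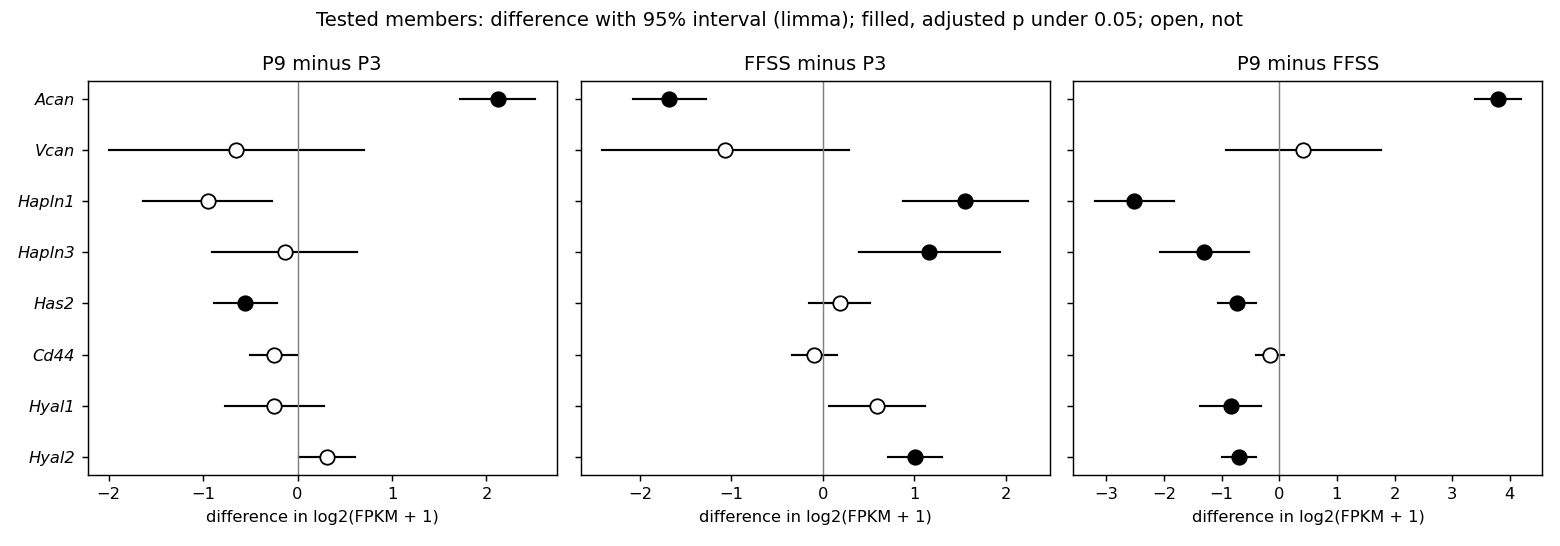
Differences in log2(FPKM + 1) of the 8 tested members (points) with 95% intervals from limma, not adjusted for the number of genes (lines); the panels from left to right set P9 against P3, FFSS against P3 and P9 against FFSS; filled points have an adjusted p under 0.05, and each panel has its own axis range. Acan lies at 2.12, -1.68 and 3.80, and the Vcan interval includes 0 in each panel.

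Acan, Hapln1 and Hyal2 are shown with the sequence just before their annotated start, since these 3 genes kept their call for FFSS against P3 in every fit run. The 250 bases before the start are from RefSeq on build GRCr8, 5′ to 3′ on the gene's strand. RefSeq windows matched 7 of the 10 members by symbol, and not Hapln3, Has2 or Has3. Capitals mark matches, on either strand, to the SOX motif ACAAAG, the TEAD motif CATTCC, the AP-1 motif TGANTCA, the CRE TGACGTCA or the GC box GGGCGG.
Acan, chr1:142390701-142390950, plus strand: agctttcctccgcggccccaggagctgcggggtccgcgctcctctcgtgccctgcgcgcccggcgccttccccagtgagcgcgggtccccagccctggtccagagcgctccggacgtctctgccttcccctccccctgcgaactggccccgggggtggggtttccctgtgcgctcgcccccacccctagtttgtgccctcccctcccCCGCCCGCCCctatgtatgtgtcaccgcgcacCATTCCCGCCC
Hapln1, chr2:22366717-22366966, plus strand: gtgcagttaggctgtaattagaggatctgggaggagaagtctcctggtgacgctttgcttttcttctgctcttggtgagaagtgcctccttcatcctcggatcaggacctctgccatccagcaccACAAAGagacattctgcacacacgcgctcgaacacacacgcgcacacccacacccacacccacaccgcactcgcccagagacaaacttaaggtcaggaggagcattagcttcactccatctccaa
Hyal2, chr8:117121552-117121801, plus strand: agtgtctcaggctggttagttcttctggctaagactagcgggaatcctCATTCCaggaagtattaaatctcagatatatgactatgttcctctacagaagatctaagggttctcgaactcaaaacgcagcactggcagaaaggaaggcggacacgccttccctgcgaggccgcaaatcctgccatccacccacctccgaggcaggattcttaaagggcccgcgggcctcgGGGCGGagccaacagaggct
The Acan window held 3 GC boxes, which begin 43, 39 and 6 bases before the start, and a TEAD motif that begins 11 bases before it; this motif overlaps the last GC box by 1 base. The Hapln1 window held a SOX motif at 125 bases, and the Hyal2 window held a TEAD motif at 202 and a GC box at 20 bases before the start. Of 33469 windows of the same length over all genes, 16.3% held the SOX motif, 12.1% the TEAD motif, 6.34% the AP-1 motif, 1.59% the CRE and 30.5% the GC box. The Acan window was 73.6% G or C, against 54% in each of the other 2 windows shown and a median of 51.2% over all windows. These are matches of letters only, and no binding was measured.

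Acan (ENSRNOG00000028992; Rnor_6.0 chromosome 1, 140762758 to 140824441, plus strand) had 128, 135 and 122 FPKM in the P3 libraries. At passage 9 it had 609, 576 and 499 FPKM, and under shear stress 29.3, 48.2 and 43.2 FPKM. No 2 groups overlapped, and within each group the libraries lay close together relative to the distance between groups. These values rest on 3036 to 60920 fragments per library. By FPKM, Acan ranked 520 to 587 among all genes in the P3 libraries, 84 to 115 in P9 and 1780 to 2676 in FFSS. The group means were 128 ± 6.56, 561 ± 56.4 and 40.2 ± 9.80 FPKM (SD, n = 3), so that the P9 mean was 4.38 times the P3 mean and the P3 mean was 3.19 times the FFSS mean. Acan rose at passage 9 by 2.12 (SE 0.18) in log2(FPKM + 1), with a limma adjusted p of 0.000288. It fell by 1.68 (SE 0.18) under shear stress, with a limma adjusted p of 0.000827. Directly compared, P9 exceeded FFSS by 3.80 (SE 0.18; limma adjusted p 3.81e-06), and the P9 mean was 14.0 times the FFSS mean. In bulk RNA, more cells that express a gene and more of its RNA per cell cannot be told apart.

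Vcan (ENSRNOG00000029212; chromosome 2, 18490102 to 18565842, minus strand) did not pass the test in any comparison. It had 34.7, 35.8 and 32.7 FPKM in P3, and 28.4, 20.6 and 17.1 FPKM in P9. Under shear stress the libraries had 42.6, 4.67 and 18.5 FPKM. The P9 libraries all lay below the P3 libraries, as did 19.1% of all tested genes. The FFSS libraries instead spread on either side of P3, with replicate 1 the highest of all 9 libraries and replicate 2 the lowest. The difference was -0.65 for P9 minus P3 (95% interval -2.00 to 0.70, limma adjusted p = 0.579) and -1.07 for FFSS minus P3 (-2.42 to 0.28, limma adjusted p = 0.224). The wide FFSS group enters the shared spread: fitted on P3 and P9 alone, the P9 difference had a limma adjusted p of 0.0430. Without FFSS replicate 1, Vcan was called lower under shear stress (-1.75, limma adjusted p = 0.0151).

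The balance of the 2 proteoglycan transcripts was taken as the share of Acan in the summed FPKM of Acan and Vcan, a value that does not depend on a library's scaling. The share was 78.7%, 79.0% and 78.8% in P3 and 95.5%, 96.5% and 96.7% in P9. It was 40.7%, 91.2% and 70.0% in FFSS. The 3 P3 libraries agreed within 0.144 percentage points (SD), and the P9 libraries were all higher, by 17.4 points on average. An exact two-sided permutation test gave p = 0.10, the smallest value that 3 against 3 libraries allow. In FFSS the share followed the scatter of Vcan and lay on both sides of P3, with a mean difference of -11.6 points (exact permutation p = 0.70). Without FFSS replicate 1 this difference changed sign to 1.74 points.

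The link proteins Hapln1 and Hapln3 clamp the lectican to hyaluronan, and Hapln1 is the classical cartilage link protein. Hapln1 (ENSRNOG00000032002; chromosome 2, 18354542 to 18419071, plus strand) had 1.95, 0.912 and 3.83 FPKM in P3. It had 0.778, 0.400 and 0.511 FPKM in P9, and 6.53, 8.73 and 8.56 FPKM in FFSS. The order was therefore the reverse of that of Acan: P9 lowest, P3 between, FFSS highest, with no overlap between groups. The P3 libraries differed among themselves by more than those of Acan did, and the P9 values rest on 31 to 54 fragments. Hapln1 rose under shear stress by 1.56 (SE 0.30, limma adjusted p = 0.00924), with an FFSS mean of 7.94 ± 1.22 FPKM, 3.56 times the P3 mean of 2.23 ± 1.48 (SD, n = 3). It reached the filter through the FFSS libraries, since only 2 P3 libraries and no P9 library had 1 FPKM. The difference for P9 minus P3 was -0.95 (SE 0.30) and missed the threshold (limma adjusted p = 0.0901). Without P3 replicate 2 it was -1.28 and passed it (limma adjusted p = 0.0227). P9 was lower than FFSS by -2.51 (SE 0.30; limma adjusted p = 0.000538).

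Hapln3 (ENSRNOG00000022321; chromosome 1, 140827295 to 140835151, minus strand) is the more widely expressed link protein. It had 5.50, 5.71 and 5.43 FPKM in P3, 4.21, 4.37 and 6.55 FPKM in P9, and 7.18, 23.2 and 15.02 FPKM in FFSS. The FFSS libraries all lay above P3 but spread widely among themselves, while P9 overlapped P3. Hapln3 rose under shear stress by 1.17 (SE 0.34, limma adjusted p = 0.0397), with an FFSS mean 2.73 times the P3 mean. This call is weak: it was lost in 10 of 16 alternative fits, with adjusted p-values of 0.0888 and 0.117 without FFSS replicates 2 and 3, and 0.101 to 0.107 without any of the P3 libraries. It was also lost without P9 replicate 1 (0.0522) or 2 (0.0591), without the filter (0.0775), on fragments with voom (0.0542) and on P3 and FFSS alone (0.0802). Without FFSS replicate 1 the limma adjusted p was 0.000906. The P9 difference from P3 was -0.14 (95% interval -0.91 to 0.63, limma adjusted p = 0.862). P9 was lower than FFSS by -1.30 (SE 0.34, limma adjusted p = 0.0195), and this call was lost without P9 replicate 1 (0.0660), P9 replicate 2 (0.0646) or FFSS replicate 3 (0.0658), and with those groups alone (0.0574).

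The level of Acan relative to its link proteins was set side by side per library, a comparison chosen after the values were seen and therefore given without a test. Acan had 31.7 to 147.7 times the FPKM of Hapln1 in P3, 783 to 1441 times in P9 and 4.48 to 5.52 times in FFSS. Relative to Hapln3 it had 22.4 to 23.6 times in P3, 76.1 to 144.5 times in P9 and 2.08 to 4.07 times in FFSS. In the FFSS libraries the ratio to Hapln1 varied little although Acan, Hapln1 and Hapln3 each differed between those libraries. The share of Hapln1 in the 2 link protein transcripts was 27.1% ± 13.8 in P3, 10.4% ± 4.53 in P9 and 37.1% ± 10.2 in FFSS (SD, n = 3). The P9 and FFSS ranges each overlapped that of P3. Neither share was shown to differ from P3 (exact permutation p = 0.20 for P9 and 0.40 for FFSS).

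**Figure D3:**
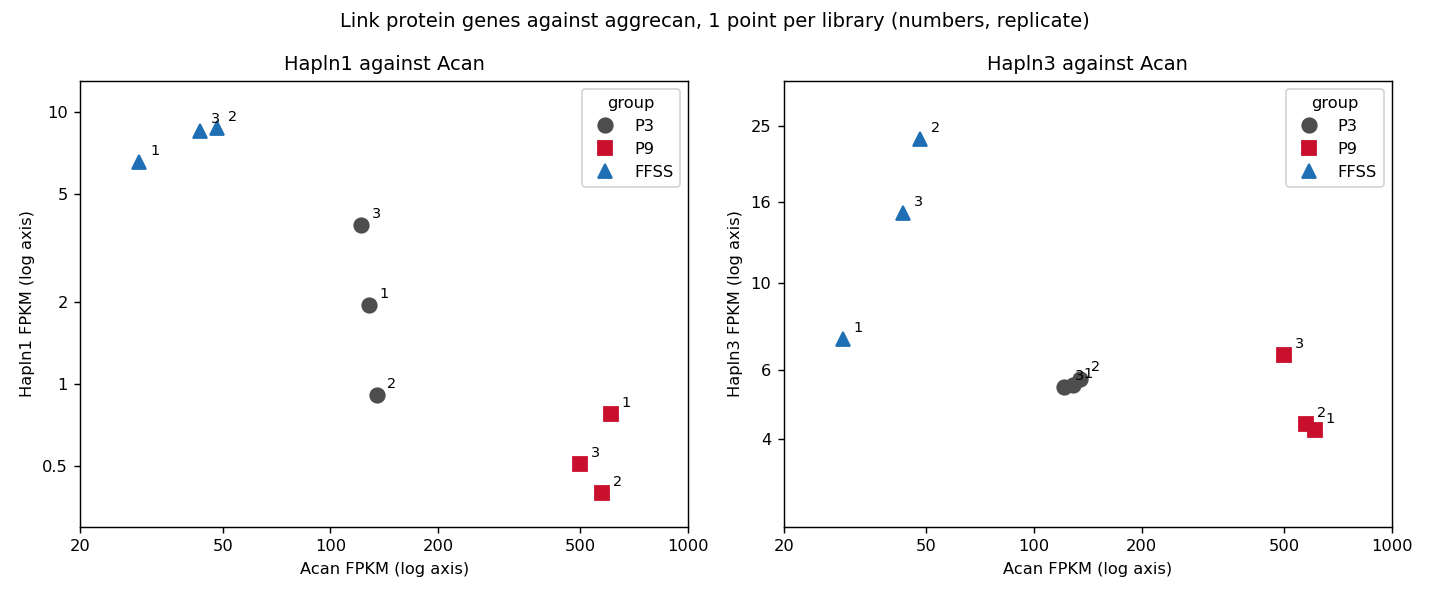
FPKM of Hapln1 (left) and Hapln3 (right) against FPKM of Acan, both axes logarithmic, with 1 point per library and its replicate number; grey circles are P3, red squares P9 and blue triangles FFSS. FFSS libraries lie at the upper left (Acan 29.3 to 48.2 FPKM) and P9 libraries at the right (Acan 499 to 609 FPKM). P9 libraries lie lowest for Hapln1, while for Hapln3 they overlap P3 (4.21 to 6.55 against 5.43 to 5.71 FPKM). The points share a group, so no correlation was computed.

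Among the synthases the transcript of Has2, which makes long hyaluronan chains, was the most abundant in every library. Has2 (ENSRNOG00000004854; chromosome 7, 96438046 to 96464049, minus strand) had 10.3, 11.5 and 9.90 FPKM in P3, 6.67, 6.54 and 7.46 FPKM in P9, and 9.84, 14.5 and 12.5 FPKM in FFSS. The P9 libraries lay below all others, and FFSS overlapped P3. Has2 fell by 0.55 at passage 9 (SE 0.15, limma adjusted p = 0.0474), and the P3 mean of 10.6 ± 0.847 FPKM was 1.53 times the P9 mean of 6.89 ± 0.496. That call sits at the threshold: the adjusted p was 0.0838 to 0.163 without any single P3 or P9 library, 0.0764 without FFSS replicate 3 and 0.0702 without the filter, whereas it was 0.00979 on P3 and P9 alone. The difference of P9 from FFSS was -0.74 (SE 0.15, limma adjusted p = 0.00599) and kept its call in all 16 alternatives. FFSS minus P3 was 0.19 (95% interval -0.15 to 0.52, limma adjusted p = 0.386).

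Has1 (chromosome 1, 59720612 to 59732409, minus strand) was near the limit of detection. It had 0.663, 0.346 and 0.614 FPKM in P3, 0.420, 0.0939 and 0.384 in P9, and 0.574, 1.08 and 0.931 in FFSS, from 3 to 33 fragments per library. P3 overlapped both other groups, and the P9 libraries all lay below the FFSS libraries. Has3 (chromosome 19, 39063998 to 39077722, plus strand) had 0.0951 to 0.158 FPKM over the 9 libraries, from 10 to 16 fragments. Its locus overlaps Chtf8 on the opposite strand, which averaged 25.4 FPKM, and whether the counting used strand is not given in the sources used here, so the Has3 reads are uncertain. Has2 accounted for 94.0% ± 1.76 of the summed FPKM of the 3 synthases in P3, 94.2% ± 2.41 in P9 and 92.5% ± 0.606 in FFSS (SD, n = 3). These shares differed by less than the spread between libraries for P9 (0.214 percentage points, exact permutation p = 0.90), and for FFSS the exact permutation p was 0.30 (-1.45 points). The summed synthase FPKM was 11.2 ± 0.687 in P3, 7.32 ± 0.605 in P9 and 13.3 ± 2.59 in FFSS.

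Cd44 (ENSRNOG00000006094; chromosome 3, 92696313 to 92783658, minus strand), the main cell surface receptor of hyaluronan, was the most abundant member in P3 and FFSS. It had 172, 179 and 167 FPKM in P3, 144, 141 and 150 FPKM in P9, and 145, 184 and 160 FPKM in FFSS. The P9 libraries lay below P3 by a small margin, and FFSS spanned both groups. No comparison passed the test: P9 minus P3 was -0.25 (95% interval -0.50 to -0.003, limma adjusted p = 0.212), and FFSS minus P3 was -0.09 (-0.34 to 0.16, limma adjusted p = 0.584). P9 minus FFSS was -0.16 (-0.41 to 0.09, limma adjusted p = 0.293). The intervals bound any change of Cd44 well below that of Acan. In P9 Acan exceeded Cd44 in every library, and in the other groups Cd44 exceeded Acan in every library.

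The hyaluronidases Hyal1 and Hyal2 cut hyaluronan, Hyal1 in lysosomes and Hyal2 as a membrane-anchored enzyme. Hyal2 (ENSRNOG00000031420; chromosome 8, 116324040 to 116328978, plus strand) had 15.2, 13.6 and 15.4 FPKM in P3, 18.0, 18.2 and 19.4 FPKM in P9, and 25.4, 33.4 and 34.0 FPKM in FFSS. The groups did not overlap, and the FFSS libraries were the highest. Hyal2 rose under shear stress by 1.01 (SE 0.13, limma adjusted p = 0.00194), and the FFSS mean of 30.9 ± 4.83 FPKM was 2.10 times the P3 mean of 14.7 ± 0.969 (SD, n = 3). At passage 9 the difference was 0.31 (95% interval 0.02 to 0.61, limma adjusted p = 0.186), although it passed on P3 and P9 alone (0.0457) and without FFSS replicate 1 (0.0420). P9 was lower than FFSS by -0.70 (SE 0.13, limma adjusted p = 0.00449).

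Hyal1 (ENSRNOG00000015858; chromosome 8, 116332796 to 116335435, plus strand) had 5.84, 4.50 and 5.58 FPKM in P3, 4.55, 3.87 and 4.47 FPKM in P9, and 5.39, 11.3 and 9.88 FPKM in FFSS. FFSS replicate 1 lay within the P3 range and the other 2 FFSS libraries lay above every other library. FFSS minus P3 was 0.60 (SE 0.23) and missed the threshold (limma adjusted p = 0.0965). Without FFSS replicate 1 it was 0.88 and passed (limma adjusted p = 0.00191). P9 minus P3 was -0.25 (95% interval -0.77 to 0.28, limma adjusted p = 0.586). P9 was lower than FFSS by -0.84 (SE 0.23, limma adjusted p = 0.0238), a call that was lost without FFSS replicate 2 (0.0663) or 3 (0.0843), without P9 replicate 1 (0.0543), 2 (0.0768) or 3 (0.0550), and on P9 and FFSS alone (0.0629). The summed FPKM of both hyaluronidases was 20.04 ± 1.66 in P3, 22.8 ± 0.949 in P9 and 39.8 ± 7.83 in FFSS (SD, n = 3). So by group mean the synthase sum was lowest at passage 9, and both sums were highest under shear stress. The synthase sums of FFSS and P3 overlapped. The hyaluronidase sum holds only Hyal1 and Hyal2 and leaves out other turnover genes such as Cemip, given below. These sums were not tested.

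Several members are neighbours on the genome. Acan and Hapln3 lie tail to tail on chromosome 1 with 2853 bases between them, and Hapln1 and Vcan lie tail to tail on chromosome 2 with 71030 bases between them. Hyal2 and Hyal1 lie on the same strand of chromosome 8, 3817 bases apart. The deposited table lists 0 genes between the members of each pair. Under shear stress Acan fell and Hapln3 rose, the only pair in which both neighbours passed the test against P3. The Hapln3 call was weak and was lost in 10 of 16 alternative fits. For Hapln1 and Vcan the differences were 1.56 and -1.07 under shear stress and -0.95 and -0.65 at passage 9, of which only the first passed. For Hyal2 and Hyal1 they were 1.01 and 0.60 under shear stress and 0.31 and -0.25 at passage 9, and again only the first passed.

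Genes whose pattern was most like that of a member were ranked by Pearson's r of log2(FPKM + 1) over the 9 libraries among 8440 genes with a mean of at least 5 FPKM. The 9 points fall into 3 groups, so r describes group differences and is given without a p. For Acan the closest were Cadm4 (r = 0.986), Mcam (0.985), Flnc (0.984), Klhl2 (0.982) and Lrrfip1 (0.981). Cadm4, a cell adhesion molecule, averaged 23.4 FPKM in P3, 292 in P9 and 5.51 in FFSS. Flnc, a filamin that crosslinks actin in muscle, averaged 58.9, 127 and 33.0 FPKM. For Has2 the closest were Serpinf1 (r = 0.996), which averaged 908 FPKM in P3, 477 in P9 and 1131 in FFSS, and the collagen lysyl hydroxylase Plod2 (r = 0.991). For Hyal2 they were Cuedc1 (r = 0.993) and Gas6 (r = 0.991), and for Hyal1 Rfng (r = 0.995) and Hk1 (r = 0.983). For Hapln1 they were Glt8d2 (r = 0.986) and Hsd11b1 (r = 0.977), for Hapln3 Kctd18 (r = 0.986) and Tnnt3 (r = 0.983). For Vcan they were Sh3pxd2b (r = 0.974) and Arhgap1 (r = 0.973), and for Cd44 Orai2 (r = 0.977) and Adam15 (r = 0.971).

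The lists around the network are read beside the shares of all genes called, 9.83% at passage 9 and 21.8% under shear stress. Without FFSS replicate 1 the share of all genes called under shear stress was 39.0%. In that fit the calls were 4 higher and 1 lower of 6 tested receptors and binding proteins, 4 higher and 0 lower of 6 for turnover, and 1 higher and 4 lower of 7 for the UDP-sugar supply. They were 3 higher and 2 lower of 7 in the cleavage list, which holds proteases and the inhibitor Timp3. For matrix partners they were 0 higher and 3 lower of 6, and for CD44 partners 2 higher and 2 lower of 6. The count of receptors and binding proteins includes Tlr2, which passed the filter only through the FFSS libraries, so it is a description. The chondrogenic factors Sox9, Sox5 and Sox6, which act on the Acan gene, went the other way from Acan in FFSS. Sox9 had 4.72, 4.79 and 4.06 FPKM in P3, 6.37, 7.997 and 5.01 in P9, and 15.3, 9.82 and 13.0 in FFSS. It rose under shear stress by 1.29 (limma adjusted p = 0.00338), where Acan fell, and its P9 difference of 0.42 did not pass (limma adjusted p = 0.239). Sox6 fell by 1.52 at passage 9 (limma adjusted p = 0.000731), where Acan rose. Sox5 rose under shear stress by 1.13 (limma adjusted p = 0.00583), but it passed the filter only through the FFSS libraries. The FFSS increase of Sox6 by 0.59 (limma adjusted p = 0.0315) was lost in 8 of 16 alternative fits.

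Of the proteases that cleave aggrecan and versican, with the inhibitor Timp3, 8 of 10 were tested: 3 rose and 1 fell under shear stress, and at passage 9 limma called only Mmp3, which fell, with 3 lower at an unadjusted p under 0.05 and 3 called lower on fragments with voom. The median difference was 0.80 in FFSS and -0.59 in P9. These counts and medians include Mmp13 and are descriptions. Mmp13, a collagenase that also cuts aggrecan, rose under shear stress by 3.02 (limma adjusted p = 0.00376), from 0.392 ± 0.317 to 12.1 ± 7.44 FPKM; it passed the filter only through FFSS. Mmp3 fell by 2.61 at passage 9 (limma adjusted p = 0.00326) and rose under shear stress by 1.995 (limma adjusted p = 0.00862). Adamts1 fell by 1.40 under shear stress (limma adjusted p = 0.00194). The aggrecanase Adamts4 rose by 0.70 at the threshold (limma adjusted p = 0.0478), and this call was lost in 12 alternatives, among them each of the 3 fits without a P3 library. The aggrecanase Adamts5 averaged 10.1 FPKM in P3, 6.66 in P9 and 22.7 in FFSS and did not pass the test against P3.

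Of the 15 other hyaluronan receptors and binding proteins listed, 14 were measured and 6 tested. Under shear stress 3 rose and 1 fell, with a median of 1.43. This count and median include Tlr2 and are descriptions. At passage 9 limma called 0, with 2 at an unadjusted p under 0.05 and 0 called on fragments with voom, and the median was 0.02. Tlr2 rose under shear stress by 2.94 (limma adjusted p = 0.00270), with 29.4, 7.81 and 13.7 FPKM against 1.25, 0.448 and 1.65 in P3; it passed the filter only through FFSS. Layn, the receptor layilin, rose by 1.87 (limma adjusted p = 0.00743), and Tlr4 rose by 0.99 (limma adjusted p = 0.0133; 0.0563 without P3 replicate 2). Hmmr, a hyaluronan-binding protein of the mitotic spindle, fell by 2.18 (limma adjusted p = 0.00441). The Toll-like receptors are also expressed by leukocytes, whose summed markers were higher in FFSS, mostly through Cd14 (39.9, 94.3 and 67.5 FPKM, against 8.76, 8.80 and 9.86 in P3). Cd68 also rose under shear stress, by 0.97 (limma adjusted p = 0.00780), but it passed the filter only through the FFSS libraries. Csf1r had 0.0840, 3.17 and 2.08 FPKM in FFSS and at most 0.187 in P3. Aif1 and Tyrobp were at 0 in every P3 and P9 library and reached 0.153 and 0.797 FPKM in FFSS, and Ptprc was at most 0.0400 FPKM in any library. Their part in the Toll-like receptor changes was not tested.

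Hyaluronan turnover beyond the members showed its main change in Cemip, a hyaluronan-depolymerising protein. Cemip had 165, 186 and 151 FPKM in P3, 37.5, 37.6 and 59.5 in P9, and 114, 242 and 214 in FFSS. It fell by 1.90 at passage 9 (limma adjusted p = 0.00368) and kept its call in every alternative. Of this list, 8 genes were measured and 6 tested. Under shear stress 3 were called, all higher, and at passage 9 the only call was Cemip. The lysosomal enzyme Hexa rose under shear stress by 0.69 (limma adjusted p = 0.00582). Cemip2 rose by 0.64 (limma adjusted p = 0.0145) and lost its call without P3 replicate 1, P3 replicate 2 or FFSS replicate 3 (0.0560 to 0.0614). Gusb rose by 0.53 (limma adjusted p = 0.0321), a call lost in 6 alternatives.

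All 7 genes of the UDP-sugar supply, which feeds the synthases, were tested. Gfpt2, of the hexosamine pathway, fell by 1.57 at passage 9 (limma adjusted p = 0.00489) and rose under shear stress by 1.13 (limma adjusted p = 0.0151). The rise was lost without P3 replicate 2 or FFSS replicate 3 (0.0603 to 0.0610). Uap1 fell by 1.02 at passage 9 (limma adjusted p = 0.0132), and leaving out P3 replicate 1, P3 replicate 3, P9 replicate 2 or P9 replicate 3 raised this to 0.0553 to 0.0614. Under shear stress Pgm3 fell by 0.94 (limma adjusted p = 0.00635) and Gfpt1 by 0.55 (limma adjusted p = 0.00745). In this list the 2 calls at passage 9 were both lower, and 1 gene rose and 2 fell under shear stress, with medians of -0.44 and -0.32.

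Among 6 tested matrix partners of the lecticans, the 3 calls at passage 9 were all higher and the 2 calls under shear stress both lower. Fbln2 rose at passage 9 by 1.07 (limma adjusted p = 0.0147), Fbn1 by 1.05 (0.0122) and Tnc by 0.79 (0.0414). Tnc lost its call in 8 alternatives, Fbn1 without P3 replicate 1 or 3 (0.0522 and 0.0599), and Fbln2 without P3 replicate 1, P3 replicate 3 or P9 replicate 2 (0.0576 to 0.0708). Under shear stress the fibrillins Fbn2 and Fbn1 fell by 1.96 (limma adjusted p = 0.00598) and 0.92 (limma adjusted p = 0.0142); the Fbn1 call was lost without P3 replicate 1 or 2 (0.0537 and 0.0601). Of 6 CD44 partners limma called 0 at passage 9, with 2 at an unadjusted p under 0.05 and 0 called on fragments with voom. Under shear stress Spp1, osteopontin, rose by 0.98 (limma adjusted p = 0.00987), Nf2 rose by 0.45 (0.0108; 0.0537 without P3 replicate 1) and Msn, moesin, fell by 0.76 (0.00316). Of 4 further lecticans and link proteins only Hapln4 was tested; it rose under shear stress by 0.78 (limma adjusted p = 0.0415), a call lost in 10 of 15 alternatives.

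**Figure D4:**
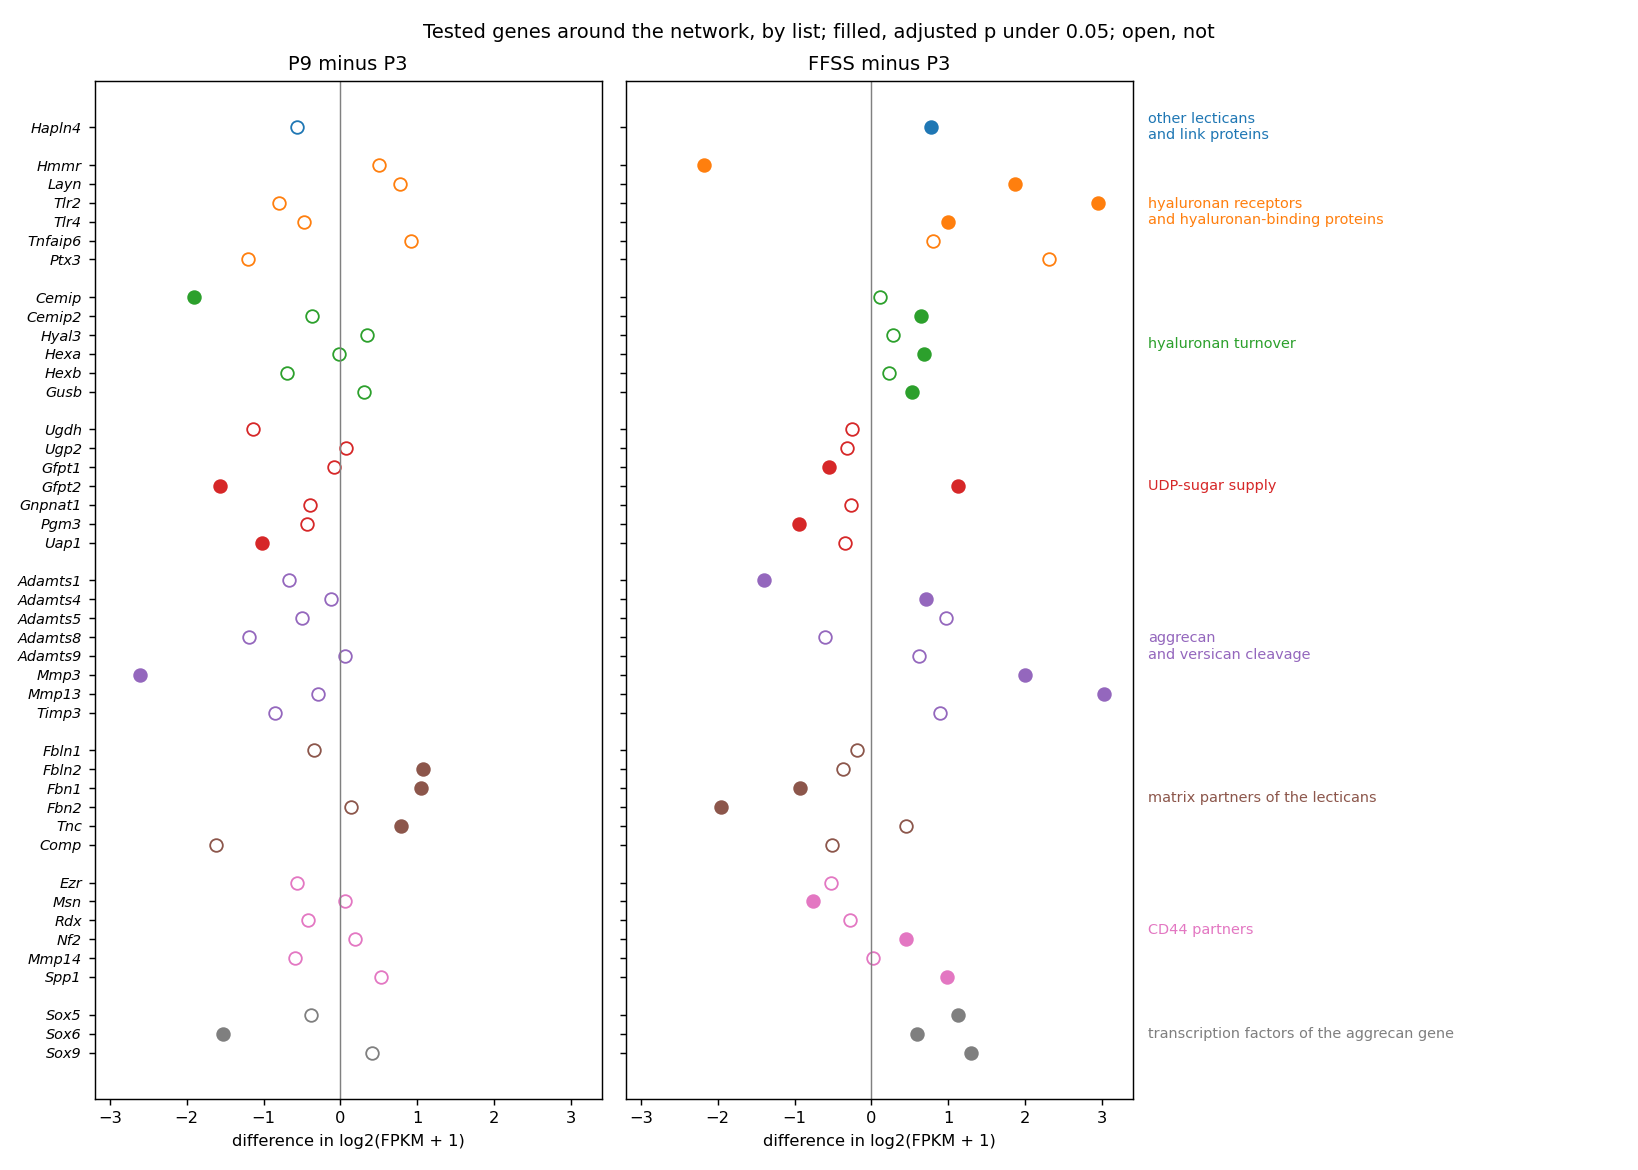
Differences in log2(FPKM + 1) of the tested genes of 8 lists around the network, for P9 minus P3 (left) and FFSS minus P3 (right); colours mark the list, filled points have an adjusted p under 0.05 and open points do not. Sox9, Sox5 and Sox6 lie to the right under shear stress, and Cemip lies at -1.90 at passage 9.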

How the data were processed

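Poly(A) RNA of 9 libraries was sequenced. Per the submitters' processing notes, HISAT2 2.0.5, featureCounts 1.5.0-p3 and build Rnor_6.0 were used; settings, strand use and the trimming step are not given in the sources used here. The authors deposited 1 table of FPKM, from which whole fragments were recovered: 100.0% of values times gene length fell within 0.01 of whole steps. FPKM carries a scale factor for each library, which was not exactly the recovered total. P3 replicate 1 and FFSS replicate 2 had 15191861 and 15189958 fragments, but 1 fragment at 1 kilobase was 0.0661 and 0.0686 FPKM. How this factor was set is not given in the sources used here, so whether a few abundant genes shift all others is not known. Genes with at least 1 FPKM in 3 libraries were tested with limma 3.58.1 in R 4.3.3 (trend, group means of all 9 libraries, 6 residual degrees of freedom), comparing P9 with P3, FFSS with P3 and P9 with FFSS; the script was tested on simulated data. Shares were compared by exact permutation in SciPy 1.17.1. The members and lists were chosen with earlier results of these data known. All 10 members, and list genes with an adjusted p under 0.05, are named. Alternatives were a pseudocount of 0.1 in place of 1, no filter, a filter of 5 FPKM, scaling to library totals, voom on fragments, fitting 2 groups only, a replicate block and leaving out each library. Intervals reflect the spread between libraries, counting error included. Relative to the value, counting error is largest where fragments are few. A floor of 3 fragments corresponds to 0.186 to 0.220 FPKM for a transcript of 1 kilobase.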

Additional observations from a re-analysis of the deposited data

How the results depend on the processing

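Over 8 members, 3 comparisons and 16 alternatives, 348 of 384 values kept their direction and call, 29 lost the call, 6 gained one and 1 changed sign. Acan in all 3 comparisons, Hapln1 and Hyal2 in those with FFSS, and Has2 in P9 against FFSS kept their call throughout. Vcan in P9 minus FFSS was 0.42 with all libraries, and -0.37 without FFSS replicate 2 to 1.10 without FFSS replicate 1; the cause was not tested. Leaving out each library, the genes called ranged from 589 to 2228 for P9 against P3 (1284 with all), from 1178 to 5022 for FFSS against P3 (2845), and from 2566 to 5876 for P9 against FFSS (4100); the highest of each came without FFSS replicate 1. The members called ranged from 1 to 2 higher and 0 to 1 lower for P9 against P3, from 2 to 4 higher and 1 to 2 lower for FFSS against P3, and from 3 to 5 lower for P9 against FFSS. Members called higher for FFSS against P3 were 3 with all libraries and 2 in 10 of the 16 alternatives, in each of which Hapln3 lost its call. Fitting only the 2 groups compared gave 2488 genes, 2 members higher and 2 lower for P9 against P3, and 2491 genes and 3 members lower for P9 against FFSS. With no filter, 0 members were lower for P9 against P3. With a replicate block, 0 members were also lower there, since Has2 had a limma adjusted p of 0.0749; the block changed no other member's call. Libraries with the same number did not deviate together (correlations from -0.041 to 0.033, and 1 of 9 correlated best with its own number), so the numbers were not taken as pairs. The Acan share in P9 minus P3 was 24.8 percentage points from fragments not divided by length, and 17.2 to 17.8 leaving out each library; in FFSS minus P3 it ranged from -23.5 to 1.74. The Has2 share in P9 minus P3 was -0.638 points from fragments and ranged from -1.09 to 1.29. With 3 libraries a group, small differences such as those of Cd44 were not resolved, and Has1 and Has3 were below the filter.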
